A study of Homo sapiens with 36 samples.

Results

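The mature miRNAs of HT-29 cells under 2 chemical activators of the hypoxia response, cobalt(II) chloride (CoCl2) and an oxyquinoline derivative (OD), were compared with each other. The comparison took the 3 small RNA libraries labelled CoCl2 and the 3 labelled Oxy, which are 6 of the 36 samples of the series. HT-29 is a human colorectal adenocarcinoma line of epithelial origin. Cells received 300 µM CoCl2 or 5 µM OD for 24 h. The labels give DMSO at 0.5 µl per ml for the OD cells and for the cells of the 3 control libraries, and name none for CoCl2. Each agent was used at 1 dose and 1 time. The CoCl2 stock was made in water per the labels, and the study's methods for its other cultures add DMSO to the CoCl2 medium too. It is thus not settled whether the CoCl2 cells of these libraries also saw DMSO. If they did not, agent and DMSO cannot be told apart between CoCl2 and OD, nor between CoCl2 and control. The series further holds mRNA libraries of the same HT-29 groups and both kinds of library from differentiated Caco-2 cells, another colorectal adenocarcinoma line. Nothing in the labels says that the 3 small RNA replicates of a group came from separate cultures, so p-values measure the spread between these samples, which may be technical in part.

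Cells sense oxygen through prolyl hydroxylases that mark the hypoxia-inducible factors (HIF) for degradation. Cobalt ions and oxyquinoline compounds both block these enzymes, which stabilises HIF while oxygen is present. A miRNA is cut from a hairpin precursor, whose 5p and 3p arms each give a mature strand, and the more abundant strand usually does most of the silencing. Bases 2 to 8 of the mature strand, the seed, pair with target mRNAs. miR-210 is the miRNA most widely known as a HIF target.

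A small group of low-abundance miRNAs differed between the agents. Of the 2656 miRNAs in the count table, those with enough counts were tested, and 14 (2.27% of those tested) were called at a false discovery rate (FDR) under 0.05 and a fold change over 2, of which 4 were higher and 10 lower under CoCl2 than under OD. Without the fold limit 33 (5.36%) passed, 17 higher and 16 lower, and at an unadjusted p under 0.05 there were 93. The count of 33 was less stable than that of 14, at 15 without CoCl2 replicate 3, 20 without OD replicate 1, 21 without CoCl2 replicate 2 and 62 without control replicate 2. The rule that was to pick names required a mean of 50 CPM, counts scaled to a common library size and left 0 of the 14, so all 14 are named here, after their values were seen. The test was edgeR's quasi-likelihood F test over the 9 HT-29 small RNA libraries, with Benjamini-Hochberg adjustment over all miRNAs tested. Fold changes below are log2 values of CoCl2 against OD with their standard error (SE), and levels are CPM.

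The sequences that carry the main differences are shown with the seed in capitals, from RefSeq on GRCh38.p14. miR-100-5p rose most under CoCl2 and is shown with the other members of its seed family. The strands of the miR-210, miR-27a and miR-92a hairpins are shown because the arms of these hairpins parted. The others are the named miRNAs with the largest differences or with copies elsewhere in the genome.
miR-100-5p: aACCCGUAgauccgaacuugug
miR-99a-5p: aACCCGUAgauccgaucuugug
miR-99b-5p: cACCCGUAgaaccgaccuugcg
miR-210-5p: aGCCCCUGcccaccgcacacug
miR-210-3p: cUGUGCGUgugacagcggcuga
miR-27a-5p: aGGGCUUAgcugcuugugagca
miR-27a-3p: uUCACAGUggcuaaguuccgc
miR-92a-1-5p: aGGUUGGGaucgguugcaaugcu
miR-92a-3p: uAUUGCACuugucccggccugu
miR-365a-5p: aGGGACUUuugggggcagaugug
miR-1246: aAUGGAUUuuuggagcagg
miR-12135: uAAAGGUUuguuuguaaa
miR-1247-3p: cCCCGGGAacgucgagacuggagc
miR-449c-5p: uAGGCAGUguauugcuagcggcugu

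Of the 33 miRNAs that passed the FDR, 28 had a sequence in the RefSeq table used, with 26 distinct seeds. The 33 therefore do not form a seed family. miR-100-5p lies at chr11:122152275-122152296 on the minus strand, in an intron of the lncRNA gene MIR100HG. miR-210-5p lies at chr11:568150-568171 on the minus strand, in an intron of MIR210HG. miR-27a-5p lies at chr19:13836487-13836508 on the minus strand, in an exon of MIR23AHG. miR-92a-1-5p lies at chr13:91351324-91351346 on the plus strand, in an exon of MIR17HG. miR-365a-5p lies at chr16:14309300-14309322 on the plus strand, in an intron of MIR193BHG. miR-1247-3p lies at chr14:101560326-101560349 on the minus strand, in an exon of the lncRNA gene DIO3OS. miR-449c-5p lies at chr5:55172313-55172337 on the minus strand, in an intron of CDC20B. miR-12135 lies at chr15:73299962-73299979 on the plus strand, in an intron of NEO1.

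Depth limited what could be seen. CoCl2 replicate 1 held 34043 counts and OD replicate 3 held 466975, against 8163319 to 13092513 in the other 7 HT-29 libraries. A single count was worth 29.4 CPM in CoCl2 replicate 1, and 3 counts, the floor used here, were worth 88.1 CPM. That floor lies above the level of every called miRNA in the deep libraries, and CoCl2 replicate 1 held 0 counts of 10 of the 14 and at most 1 count of 13. In OD replicate 3 a count was worth 2.14 CPM. Results are given with both libraries and without them. CoCl2 replicate 1 also stood apart in miR-372-3p, a miRNA of a stem-cell cluster, with 55 counts, against 353 and 115 in the far deeper CoCl2 replicates 2 and 3. miR-372-3p was at 61027 to 113023 CPM in the Caco-2 libraries, and its part in the results was not tested. The epithelial marker miRNAs, 9 of 9 tested, summed to 204090 to 225803 CPM under CoCl2, 212166 to 223530 under OD and 217115 to 234985 in control. The blood cell markers summed to 117 to 208 CPM over the 9 libraries, and the mesenchymal markers to at most 6.10 CPM, with 1 of 5 at 0 counts in all 9 libraries.

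**Figure D1:**
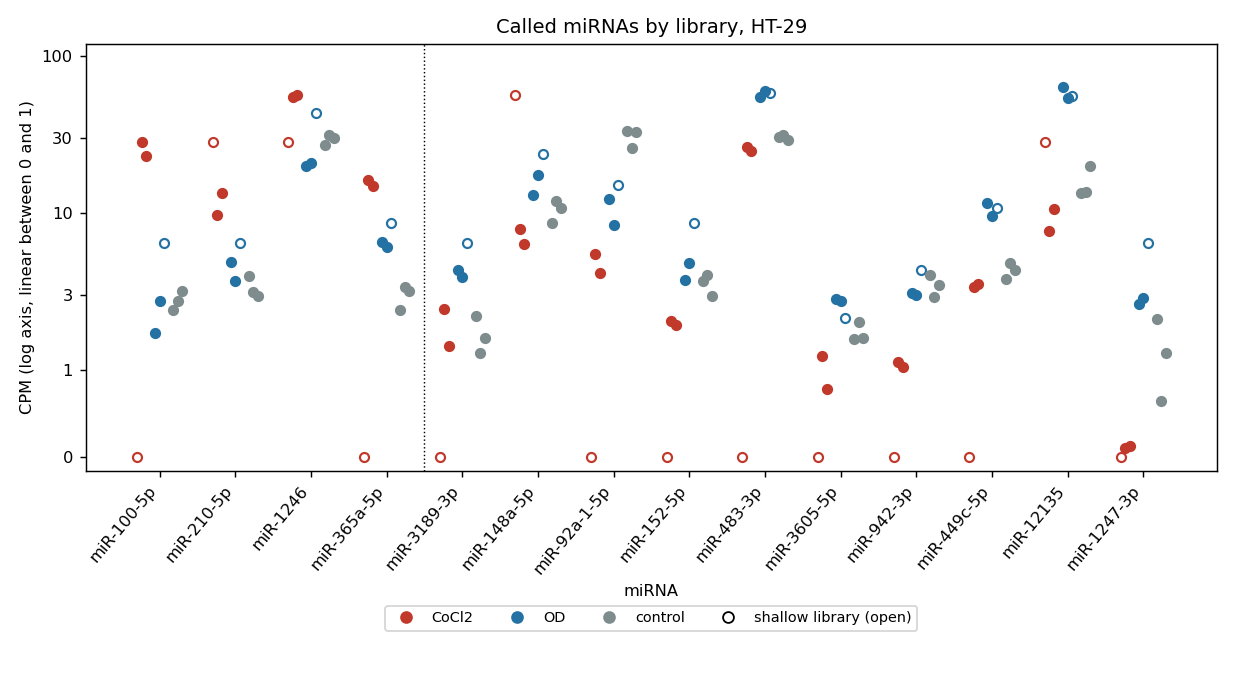
Level in CPM (log axis, linear between 0 and 1) of the 14 called miRNAs in each HT-29 small RNA library, by group, with the 4 higher under CoCl2 left of the dotted line. Open circles are CoCl2 replicate 1 and OD replicate 3, the shallow libraries, and the open circles at 0 are 10 miRNAs with 0 of 34043 counts in CoCl2 replicate 1.

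miR-100-5p showed the largest rise. Its counts were 0, 279 and 178 in the CoCl2 libraries, 15, 24 and 3 in the OD libraries and 26, 34 and 30 in control. In CPM the deep CoCl2 libraries were at 28.6 and 23.2, the OD libraries at 1.72, 2.77 and 6.50, and the control libraries at 2.41, 2.75 and 3.20. Both deep CoCl2 libraries lay above all OD and control libraries, and the shallow one could not show the miRNA at its depth. The log2 difference was 3.42 ± 0.27 (SE, n = 3 and 3) with an edgeR FDR of 1.56e-07. Without CoCl2 replicate 1 it was 3.44, without OD replicate 3 it was 3.51, and without both it was 3.53 with an FDR of 4.96e-06. Against control miR-100-5p was 3.21 higher under CoCl2 and -0.21 under OD (FDR 0.825). The other members of its seed family did not pass. miR-99b-5p, far more abundant at a mean of 10208 CPM under CoCl2 and 11778 under OD, differed by -0.20 (FDR 0.611), and miR-99a-5p by -0.18 (FDR 0.855). let-7a-5p, whose MIRLET7A2 hairpin lies 5707 bases from MIR100, differed by -0.02, although this mature strand also comes from other hairpins.

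miR-210 parted by arm. The 3p arm, the main strand, was at 994, 919 and 838 CPM under CoCl2, at 1054, 914 and 685 CPM under OD, and at 377.8, 347 and 381 CPM in control. All 6 treated libraries lay above all 3 control libraries, and the treated groups overlapped. Against control miR-210-3p rose by 1.28 under CoCl2 and by 1.28 under OD. The direct difference between the agents was -0.00 with a 95% interval from -0.30 to 0.29 (FDR 0.996). The 5p arm had counts of 1, 95 and 104 under CoCl2, of 43, 32 and 3 under OD and of 43, 39 and 28 in control. The deep CoCl2 libraries were at 9.75 and 13.6 CPM and the OD libraries at 4.93, 3.70 and 6.50 CPM, with no overlap. The difference was 1.40 ± 0.24 (edgeR FDR 0.000869) with all libraries and 1.42 without both shallow ones. miR-210-5p was 1.78 higher under CoCl2 than in control, and 0.38 under OD, which did not pass (FDR 0.487).

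miR-365a-5p also rose. Its counts were 0, 158 and 115 under CoCl2, 57, 53 and 4 under OD and 26, 42 and 30 in control. The difference was 1.27 ± 0.20 (edgeR FDR 0.000608). It was above control under both agents, by 2.36 under CoCl2 and by 1.095 under OD. The 3p strand, which is the same sequence for miR-365a and miR-365b and cannot be assigned to 1 of them, had a difference of 0.62 ± 0.16 (FDR 0.0278). miR-193b, whose hairpin lies 5318 bases from MIR365A in the same transcript, had differences of 1.06 for the 5p arm (FDR 0.0676) and 0.48 for the 3p arm (FDR 0.274), which did not pass.

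miR-1246 was the remaining miRNA called higher. Its levels were 28.4, 55.1 and 57.1 CPM under CoCl2, 20.1, 20.9 and 43.3 CPM under OD and 27.3, 31.7 and 30.2 CPM in control. The value of CoCl2 replicate 1 rests on 1 count, and with it the groups overlapped, while the deep libraries did not. The difference was 1.30 ± 0.20 (edgeR FDR 0.000396) and 1.45 without both shallow libraries. The mature sequence matched 20 places in the genome, among them genes of the U2 small nuclear RNA, so reads counted under this name may come from other RNAs.

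miR-1247-3p showed the largest fall. Its counts were 0, 1 and 1 under CoCl2, 23, 25 and 3 under OD and 23, 8 and 12 in control. Summed over the libraries, 2 counts of 18368122 stood against 51 of 18184428, a ratio of OD to CoCl2 of 25.8 with an exact 95% interval from 6.77 to 218.4 that covers counting error only. The edgeR FDR was 0.000410, and the fitted fold change depends on the prior count at such levels. The 5p arm of the same hairpin had a difference of -0.29 (FDR 0.741), with counts of 24 and 18 in the deep CoCl2 libraries and 23 and 30 in the deep OD libraries.

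miR-12135 came next. Its counts were 1, 75 and 82 under CoCl2, 558, 469 and 26 under OD. In CPM the deep CoCl2 libraries were at 7.70 and 10.7, the OD libraries at 64.0, 54.2 and 56.3, and the control libraries at 13.5, 13.8 and 20.0. The OD libraries lay above all others, and the deep CoCl2 libraries below all control libraries. The difference was -2.67 ± 0.22 (edgeR FDR 1.59e-07) and -2.70 without both shallow libraries. It was 1.90 higher under OD than in control and fell by 0.77 under CoCl2 (FDR 0.0245). miR-12135 has 18 bases and a single match in the genome, at its RefSeq gene.

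miR-449c-5p, of a family related to miR-34, had counts of 0, 33 and 27 under CoCl2 against 102, 83 and 5 under OD. Control libraries held 41, 60 and 41 counts. The difference was -1.63 ± 0.22 (edgeR FDR 0.000121), and miR-449c-5p was 1.29 above control under OD. miR-483-3p, cut from an intron of the growth factor gene IGF2, had counts of 0, 258 and 191 under CoCl2 against 478, 519 and 27 under OD. The deep CoCl2 libraries were at 26.5 and 24.9 CPM, the OD libraries at 54.8, 59.99 and 58.5 CPM and the control libraries at 30.5, 31.7 and 29.5 CPM. Its difference was -1.18 ± 0.16 (FDR 0.000121), and it stood 0.91 above control under OD and -0.26 under CoCl2 (FDR 0.331). The 5p arm of miR-483 passed without the fold limit, at -0.85 ± 0.20 (FDR 0.0178).

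The other 6 called lower were rare strands, with means of 1.64 to 20.9 CPM over the 6 libraries. miR-92a-1-5p, the minor strand of a hairpin in the miR-17-92 cluster, had counts of 0, 54 and 32 under CoCl2, 108, 73 and 7 under OD and 364, 320 and 308 in control. It was below control under both agents, by -2.65 under CoCl2 and -1.52 under OD, and differed between them by -1.13 ± 0.25 (edgeR FDR 0.00996). miR-942-3p was at -1.49 ± 0.32 (FDR 0.00866), with 11 and 8 counts in the deep CoCl2 libraries and 27 and 26 in the deep OD libraries. miR-3605-5p was at -1.43 ± 0.34 (FDR 0.0178), with 12 and 6 counts against 25 and 24. miR-152-5p and miR-148a-5p, the minor strands of related hairpins, were at -1.16 ± 0.29 (FDR 0.0194) and -1.09 ± 0.26 (FDR 0.0177). miR-3189-3p was at -1.08 ± 0.31 (FDR 0.0479), with 24 and 11 counts against 38 and 34, and it is the call that ended without the shallow libraries.

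**Figure D2:**
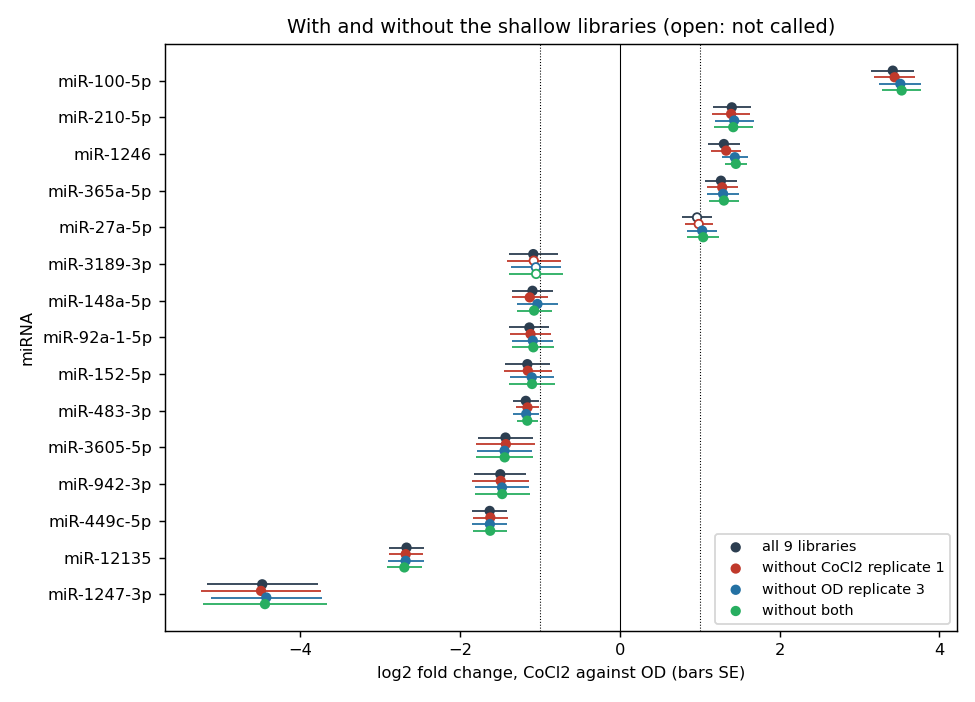
log2 fold change of CoCl2 against OD, with its SE, for the 15 miRNAs called in at least 1 of 4 fits: with all 9 libraries, without CoCl2 replicate 1, without OD replicate 3, and without both. Filled points are called, and each miRNA keeps its sign in all 4 fits.

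Leaving out the shallow libraries hardly moved the edgeR values. CoCl2 replicate 1, with at most 1 count of 13 of the 14, carried too little weight to move them, so its removal is no test of them. With all libraries 14 were called, without CoCl2 replicate 1 there were 13 of 637 tested, without OD replicate 3 there were 14 of 628, and without both there were 14 of 628. In all 4 fits 13 miRNAs were called and 25 passed the FDR. Leaving out CoCl2 replicate 3, a deep library, had more effect, with 10 called and 8 of the 14 among them. miR-3189-3p was called with all libraries and had FDRs of 0.0748, 0.0763 and 0.120 in the fits without CoCl2 replicate 1, without OD replicate 3 and without both. miR-27a-5p crossed the fold limit when OD replicate 3 was left out. DESeq2 called 2 with all libraries, miR-100-5p and miR-12135, and 10 without both shallow libraries. All 14 had the same sign in DESeq2 with all libraries, which is no separate evidence as the same counts had picked them. There 5 of them received no adjusted p.

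The 19 that passed the FDR below the fold limit were more abundant. Highest among them was miR-215-5p, a p53-responsive miRNA of the intestinal epithelium. It was at 5197, 3800 and 3831 CPM under CoCl2 and at 2624, 3015 and 2596 CPM under OD, with no overlap. The difference was 0.60 ± 0.14 (edgeR FDR 0.0187), and against control it was 0.69 under CoCl2 and 0.09 under OD. It did not pass without OD replicate 3 (0.55, FDR 0.0653) or without both shallow libraries (0.44, FDR 0.144). miR-192-5p, which shares its seed and was at a mean of 53033 CPM under CoCl2, differed by 0.15 (FDR 0.648). miR-194-5p, from a hairpin 304 bases away, differed by 0.07, although this mature strand matched 2 annotated miRNA genes.

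miR-4521 was at 198.8, 182.2 and 176.1 CPM under CoCl2, at 99.8, 95.2 and 58.5 CPM under OD and at 479, 397 and 468 CPM in control. It was below control under both agents, by -1.32 and -2.30, and 0.98 ± 0.15 higher under CoCl2 than under OD (edgeR FDR 0.000396). The strands miR-1260a and miR-1260b, which share a seed, were lower under CoCl2, both at -0.57 (FDR 0.00549). Their reads may be shared, and miR-1260a matched 4 places in the genome. miR-1303 matched 35 places. The others higher under CoCl2 were miR-1303 (0.72), miR-181a-3p (0.78), miR-27a-5p (0.97), miR-874-3p (0.79), miR-30b-3p (0.84), miR-671-3p (0.77), miR-671-5p (0.53), miR-374b-3p (0.51) and miR-22-5p (0.57). The others lower were miR-345-5p (-0.56), miR-4286 (-0.78) and miR-135b-3p (-0.73). Without OD replicate 3 the FDR was lost for miR-345-5p (0.0791), miR-4286 (0.0511), miR-135b-3p (0.0763), miR-22-5p (0.0763), miR-671-5p (0.0653) and miR-374b-3p (0.0653). Without both shallow libraries it was lost for miR-345-5p (0.0748), miR-4286 (0.0654) and miR-22-5p (0.0661).

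**Figure D3:**
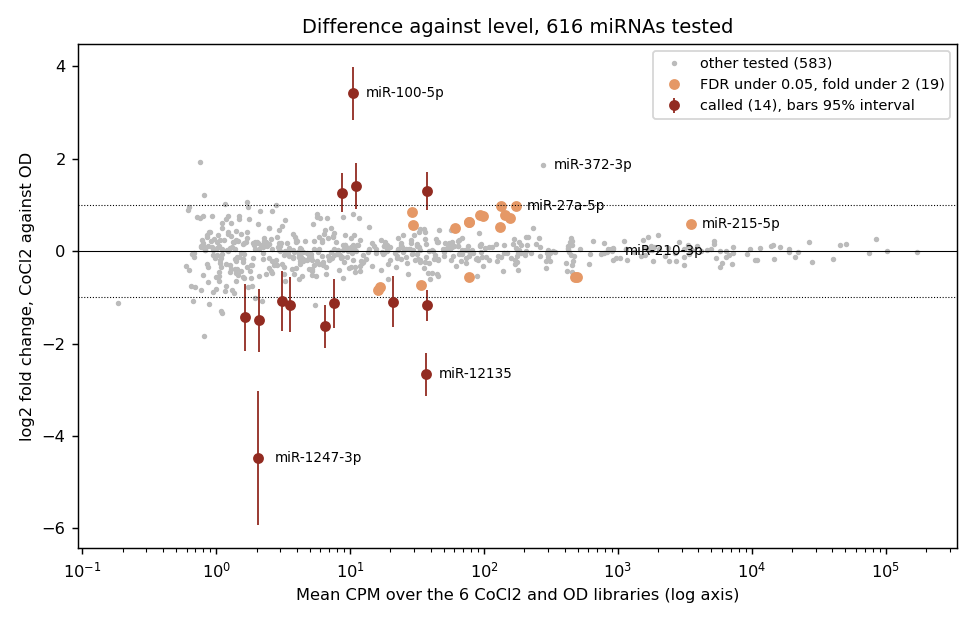
log2 fold change of CoCl2 against OD for all miRNAs tested, against the mean CPM over the 6 libraries (log axis), with 95% intervals on the 14 called. The called miRNAs lie under 100 CPM, and above 1000 CPM 1 miRNA, miR-215-5p, passed the FDR.

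Among abundant miRNAs differences were small, with narrow intervals. In the band over 1000 CPM, 71 miRNAs had a median absolute difference of 0.10 and a median 95% half-width of 0.24, and 1 passed the FDR. Between 100 and 1000 CPM 7 of 85 passed, between 10 and 100 CPM 17 of 172, and under 10 CPM 8 of 288. Under 10 CPM the median half-width was 0.71, against a fold limit of 1 on the same log2 scale. The 5 most abundant miRNAs were miR-21-5p, miR-10a-5p, miR-7-5p, miR-200b-3p and miR-192-5p. miR-21-5p had a mean of 171096 ± 4665 CPM under CoCl2 and 174619 ± 8779 under OD (SD, n = 3 each), with a 95% interval of the difference from -0.26 to 0.20. The intervals of the other 4 also spanned 0, and the widest reached 0.57, for miR-7-5p.

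Several of these miRNAs were the lesser arm of their hairpin. Of 26 miRNAs that passed the FDR and had another arm in the table, 16 (61.5%) were the less abundant arm, against 165 of 477 (34.6%) among all tested. Where the other arm was also tested, 16 of 20 arms had the same sign as their partner, against 204 of 313 among all tested, and hairpins with both arms among the 20 count for each arm. Unequal change within a hairpin was tested with limma's diffSplice over the 151 hairpins with both arms tested, a test chosen after the values were seen. It found 3 (1.99%) at an FDR under 0.05, those of miR-27a, miR-210 and miR-92a.

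**Figure D4:**
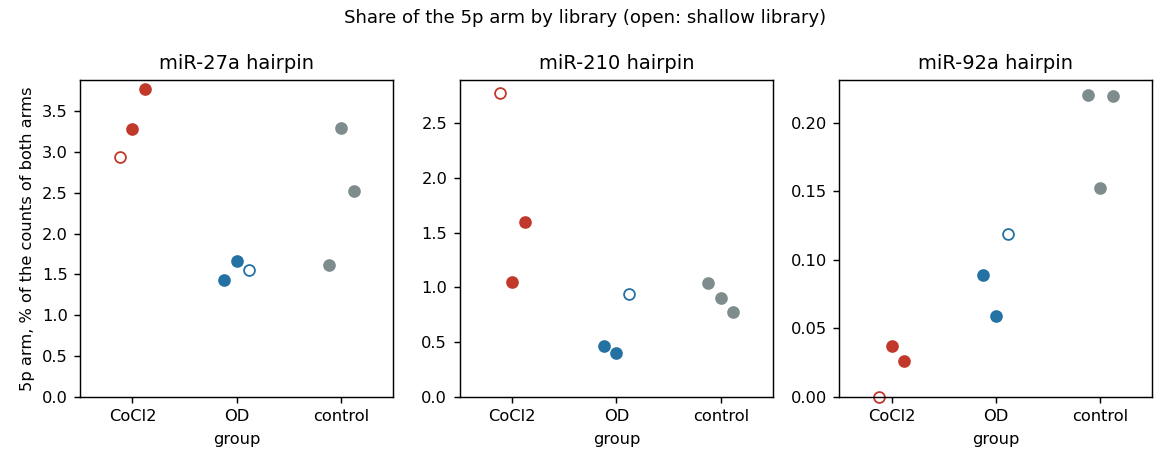
Share of the 5p arm in the counts of both arms, in percent, for the miR-27a, miR-210 and miR-92a hairpins in each HT-29 small RNA library. Open circles are the shallow libraries, where 7, 1 and 0 counts of the 5p arm (CoCl2 replicate 1) and 66, 3 and 7 counts (OD replicate 3) stand behind the shares.

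miR-27a-5p made up 2.94, 3.29 and 3.77% of the miR-27a counts under CoCl2 and 1.44, 1.66 and 1.55% under OD. The groups did not overlap, and control libraries at 1.62, 3.297 and 2.53% reached into both ranges. The arms differed by 0.97 for 5p and -0.28 for 3p (limma FDR of unequal change 0.00836). The miR-210-5p share was 2.78, 1.05 and 1.59% under CoCl2, 0.465, 0.403 and 0.940% under OD and 1.04, 0.902 and 0.776% in control (FDR 0.0228). The miR-92a-1-5p share was 0, 0.0370 and 0.0264% under CoCl2, 0.0889, 0.0588 and 0.119% under OD and 0.221, 0.153 and 0.220% in control (FDR 0.0426). miR-92a-3p also comes from the MIR92A2 hairpin, so its counts are not all from the hairpin that gives miR-92a-1-5p. Without both shallow libraries 4 hairpins passed, with FDRs of 0.00286, 0.00106 and 0.0195 for the 3 above. The addition was miR-1247, whose 3p arm had 1 count beside 24 and 1 beside 18 of the 5p arm in the deep CoCl2 libraries, and 23 beside 23 and 25 beside 30 in the deep OD libraries (FDR 0.00106, and 0.589 with all libraries). miR-92a did not pass without OD replicate 3 (FDR 0.0596).

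In the mRNA libraries of the same groups 4734 of 15812 genes (29.9%) were called between CoCl2 and OD, and the host transcripts of several miRNAs were among them. MIR210HG, the host of miR-210, had 584, 593 and 527 counts under CoCl2, 191, 152 and 170 under OD and at most 148 in control. Its CoCl2 libraries lay above all others, and the difference was 2.20 ± 0.08 (edgeR FDR 8.82e-19). It was above control by 2.80 under CoCl2 and 0.60 under OD, while the rise of mature miR-210-3p was 1.28 under both. MIR193BHG, the host of miR-365a, had 38, 43 and 58 counts under CoCl2 against 12, 16 and 17 under OD, a difference of 2.09 ± 0.28 (FDR 1.43e-07). DIO3OS, the host of miR-1247, had 1, 3 and 1 counts under CoCl2, 17, 11 and 16 under OD and 10, 3 and 13 in control. The difference in the scaled fit was -2.60 ± 0.56 (edgeR FDR 0.000165). On raw library totals the summed ratio of OD to CoCl2 was 8.98, with an exact 95% interval of 3.57 to 29.01 for counting error only. That ratio carries the shift between raw and scaled library sizes given below.

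Most hosts of other miRNAs that passed differed between the agents at an FDR under 0.05, with or without a fold change over 2. So did most genes, as 12286 of the 15812 mRNA genes tested passed the FDR without the fold limit. MIR17HG, the host of the miR-17-92 cluster, had 9, 15 and 11 counts under CoCl2, 14, 30 and 25 under OD and 84, 114 and 129 in control. It was below control by -2.63 and -2.12 and did not pass between the agents (-0.51, FDR 0.160). The other strands of the cluster that were tested had differences between -0.28, for miR-19b-1-5p, and 0.14, for miR-92a-3p, and none of them passed. GDF15, a stress-induced growth factor whose intron holds miR-3189, was higher under CoCl2 by 1.06 ± 0.07 (FDR 4.80e-13), while miR-3189-3p was lower. CHPF2, a chondroitin-synthesis gene whose exon holds miR-671, had 1269 to 1498 counts under CoCl2 against at most 404 under OD, a difference of 2.31 ± 0.06. FTX, the lncRNA host of miR-374b, was higher by 1.22 ± 0.09, and NEO1, the receptor gene around miR-12135, differed by -0.54 ± 0.06. COPZ2, a vesicle coat gene whose intron holds miR-152, was lower under CoCl2, at -0.96 ± 0.25 (FDR 0.00134). LEMD1 and BLACAT1, both around miR-135b, were lower too, at -1.101 ± 0.26 (FDR 0.000521) and -1.48 ± 0.09 (FDR 2.96e-14). In CHPF2, FTX, NEO1, COPZ2, LEMD1 and BLACAT1 the sign was that of the miRNA that passed, and in GDF15 it was the opposite. These signs are those of CoCl2 against OD only. Under OD against control, NEO1 was at -0.17 (edgeR FDR 0.00711), while miR-12135 was higher. GDF15 was 1.09 above control under OD, and miR-3189-3p was above control there too. The other hosts were not set beside their miRNAs against control. PHC2, a Polycomb gene whose exon holds miR-3605, differed by -0.0058 (FDR 0.923), and by -0.50 with scaling by library size alone. MIR100HG had at most 2 counts in any HT-29 mRNA library and CDC20B at most 1, so neither was tested. In this mRNA comparison scaling by library size alone moved the median of all genes from -0.07 to -0.56, and GDF15 and FTX were then under the fold limit, at 0.56 and 0.72, while MIR17HG (-1.004, FDR 0.00703) and NEO1 (-1.04) passed it.

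Each agent was also compared with control, on the same 3 control libraries. Against control 30 miRNAs (4.87%) were called under CoCl2, 14 higher and 16 lower, and 18 (2.92%) under OD, 8 higher and 10 lower. Of the 14 miRNAs called between the agents, 6 passed the FDR against control under CoCl2 alone, 3 under OD alone, 3 under both and 2 under neither. Over all miRNAs tested these counts were 48, 17, 27 and 524. Those under CoCl2 alone included miR-100-5p, miR-210-5p and miR-1246. Those under OD alone were miR-449c-5p, miR-483-3p and miR-3189-3p, which were above control by 1.29, 0.91 and 1.31. The 3 under both were miR-12135, miR-365a-5p and miR-92a-1-5p. For miR-12135 the agents stood on opposite sides of control, and for the other 2 they stood on the same side, with CoCl2 farther away.

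Over 18 lists of related miRNAs 86 distinct miRNAs were tested and 3 passed the FDR, miR-210-5p, miR-215-5p and miR-92a-1-5p, beside 5.36% of all miRNAs tested. The list of hypoxia-responsive families held 13 strands (3p of miR-23, miR-24, miR-27 and miR-103, its relative miR-107, and 5p of miR-26 and miR-181). All 13 failed to pass, with a median difference of 0.04 and a range from -0.35 to 0.13. Opposite strands were not on this list, and of these miR-27a-5p (0.97) and miR-181a-3p (0.78) passed. The median over all miRNAs tested was 0.00. Of the miR-17-92 cluster and its paralogs 1 of 17 passed, with a median of -0.07, and of the miR-17 family 0 of 6, with a median of -0.10. The let-7 family (0 of 9, median -0.02), which keeps cells differentiated, and the epithelial miR-200 family (0 of 5, median -0.17) held no miRNA that passed. Of the intestinal miRNAs 1 of 6 passed and of the p53-responsive miRNAs 1 of 4, in both lists miR-215-5p. The intestinal list also named miR-375, which found no entry under that name. It was tested as miR-375-3p, did not pass and is not among the 6. For the miR-30 family the list held 5p strands only and left out miR-30b-3p, which passed. No listed member passed in the NF-kB-responsive miRNAs (5 tested, median -0.03), the miR-29 family (3, 0.04), the miR-30 family (5, 0.21), the miR-15/16 family (5, -0.17), miR-221 with miR-222 (4, -0.14) or the miR-183 cluster (3, 0.04). The same held for a short list of miR-21-5p, miR-22-3p and miR-31-5p (3, -0.03), which leaves out the called miRNAs with lncRNA hosts named above, and for miRNAs in sterol-gene introns (3, -0.09), of iron and oxidative stress (3, -0.05) and in an intron of a stress gene (2, -0.46).

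Caco-2 cells gave the same comparison in libraries not used above. There 2 of 675 miRNAs (0.296%) were called between CoCl2 and OD, and miR-12135 was among them. Its counts were 8, 23 and 24 under CoCl2, 85, 76 and 114 under OD and 38, 49 and 4 in control. All 3 CoCl2 libraries lay below all 3 OD libraries, and the difference was -2.48 ± 0.23 (edgeR FDR 7.12e-08) beside -2.69 in HT-29 in the same fit. The difference between the lines was -0.21 with an FDR of 0.894. The Caco-2 cells were differentiated and the HT-29 cells were not described as such, so that line and culture state cannot be told apart.

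**Figure D5:**
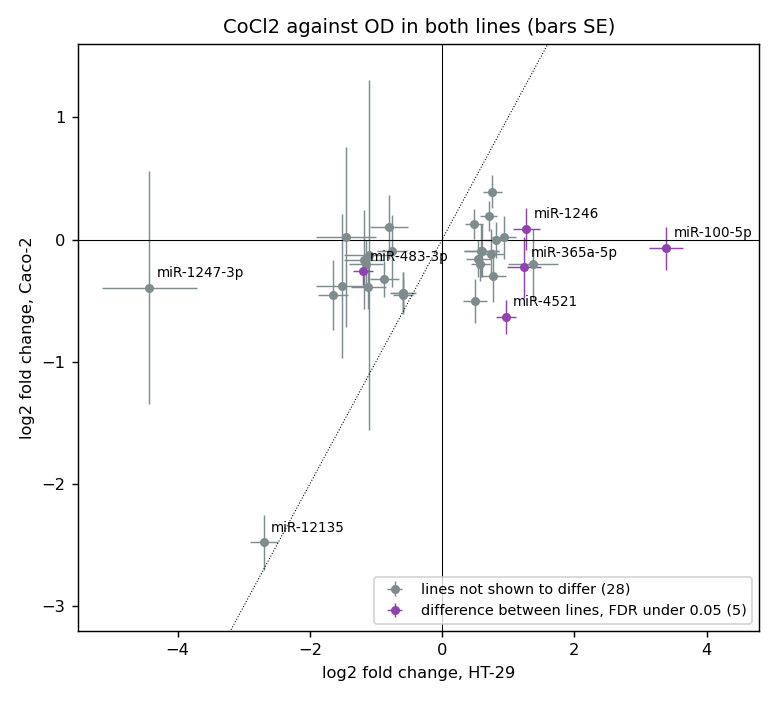
log2 fold change of CoCl2 against OD in Caco-2 against that in HT-29, with SE, for the 33 miRNAs that passed the FDR in HT-29. The dotted line marks equal values. miR-12135 lies close to it, and the 5 purple points differ between the lines at an FDR under 0.05.

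A difference between the lines was called for 4 of 675 miRNAs (0.593%), and 5 passed the FDR. miR-100-5p differed by -0.07 in Caco-2, with a difference between lines of 3.46 ± 0.31 (edgeR FDR 6.15e-08). In Caco-2 it was at 24.1, 27.9 and 24.04 CPM under CoCl2 and at 30.97, 22.7 and 26.5 CPM under OD, near the level of the deep CoCl2 libraries of HT-29. In those HT-29 libraries miR-372-3p, which Caco-2 held at 61027 CPM or more, had 353 and 115 counts, or at most 36.2 CPM. Whether reads of Caco-2 libraries entered those of HT-29 was not tested. miR-4521 was 0.97 higher in HT-29 and -0.63 in Caco-2 (FDR 0.0211 in Caco-2, and -0.51 with an FDR of 0.206 in a fit of the Caco-2 libraries alone), a difference of 1.598 ± 0.21 (FDR 2.24e-05). miR-1246 (1.19, FDR 0.0298) and miR-365a-5p (1.47, FDR 0.0494) differed by 0.09 and -0.23 in Caco-2, and both lost the FDR in DESeq2 (0.481 and 0.978) and with a replicate block within each line (0.114 and 0.0911). miR-483-3p (-0.94, FDR 0.00821) was below the fold limit. The median over all miRNAs was 0.10 for the difference between lines and -0.00 with scaling by library size alone, under which all 5 still passed. For miR-210-3p the Caco-2 difference was -0.13, with a 95% interval from -0.38 to 0.12 (FDR 0.737), beside a median of -0.13 over all miRNAs of the Caco-2 comparison in this fit.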

How the data were processed

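Small RNA of HT-29 cells was measured in 9 libraries (CoCl2, OD and control, 3 each), and mRNA of the same groups and small RNA of Caco-2 cells served for comparison. Per the labels the small RNA libraries were made with a kit without molecular identifiers and read single-end, so the exact intervals of count ratios and the floors cover counting error only, while edgeR's intervals rest on the spread between libraries. The authors deposited raw counts per mature miRNA and per gene. Their processing notes name FastQC 0.11.9, cutadapt 2.10, STAR 2.7.5b, Bowtie 1.1.1 and edgeR 3.30.3 on GRCh38.p13, and the miRNA annotation and how reads with several matches were counted are not given in the sources used here. The authors also deposited log2 values for miRNA, which were recomputed as log2 of CPM plus 1 and used as an alternative. The log2 table of mRNA was not used here.

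Groups came from the sample labels, and 0 columns were without a sample. Counts were tested with edgeR 4.0.16 in R 4.3.3 (TMM scaling, filterByExpr, quasi-likelihood F test, two-sided, 1 coefficient per group, all 9 libraries), with limma 3.58.1 and DESeq2 1.42.0 as alternatives. A miRNA was called at an FDR under 0.05 and an absolute log2 fold change over 1. SE was the absolute log2 fold change divided by the root of F. CPM use TMM-scaled library sizes, and summed marker levels, ratios of summed counts and floors use raw totals. The raw totals of the HT-29 small RNA libraries ran from 34043 to 13092513. The line comparison was 1 fit over 18 small RNA libraries. Arm usage was tested with voom and limma's diffSplice. Deviations of same-numbered control and OD libraries correlated at 0.82, 0.84 and 0.24 over 71 abundant miRNAs. The numbers may thus pair control with OD, which the labels do not state. The main fit used no pairing, and the fit with the replicate block was an alternative. The scripts were tested on simulated data. Named were the miRNAs called with a mean of at least 50 CPM (10 highest and 10 lowest), members of lists and the 5 most abundant, and further names were added after the values were seen. The members and lists were chosen with earlier results of these data known. Genomic positions are from RefSeq on GRCh38.p14, and exact matches were searched in the hg38 sequence. The RefSeq table held no sequence for miR-483-3p, miR-483-5p, miR-30b-3p, miR-148a-5p and miR-4286.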

Additional observations from a re-analysis of the deposited data

Results flagged for a closer look

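The effect of CoCl2 against OD differed between HT-29 and Caco-2 in the test of the difference itself for 5 miRNAs (edgeR, log2, HT-29 minus Caco-2). The values were 3.46 for miR-100-5p, 1.598 for miR-4521, 1.19 for miR-1246, 1.47 for miR-365a-5p and -0.94 for miR-483-3p. Without both shallow HT-29 libraries they were 3.43, 1.36, 1.21, 1.37 and -1.06, and all 5 passed the FDR. DESeq2 gave 3.22, 1.46, 0.95, 1.24 and -1.11, with miR-100-5p and miR-4521 passing. Groups held 3 libraries each, too few for a test of single libraries that stand apart.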

How the results depend on the processing

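Between CoCl2 and OD, DESeq2 called 2 in place of 14, the stricter filter of 50 mean counts 6 (of 345 tested), limma on the deposited log2 values 2 (of 283 listed for HT-29, which hold 4 of the 14), and the FDR alone 33. Against control the same settings gave 8, 10, 7 and 75 in place of 30 under CoCl2, and 3, 5, 3 and 44 in place of 18 under OD. For the difference between lines DESeq2 gave 2 in place of 4, and the replicate block within each line 2. The cause of the DESeq2 counts was not tested. The FDR-only count of 33 ran from 15 to 62 with a library left out and was 75 with voom weights. Leaving out 1 library gave 10 to 20 calls between the agents, 22 to 32 and 14 to 22 against control. Without CoCl2 replicate 3, 8 of the 14 kept their call. Scaling by library size kept 13 of 14 and RLE 14, the fit of 6 libraries called 18, no filter 21 and voom with weights 16.

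Over 71 abundant miRNAs, deviations of same-numbered libraries correlated from -0.43 to 0.0959 in pairs with CoCl2. The deviations are from the group mean, into which the counting noise of the shallow CoCl2 replicate 1 enters. Whether the numbers pair CoCl2 with the other groups therefore cannot be told. Of 9 libraries 5 correlated best with their own number. With the replicate block 17 were called in place of 18 for OD against control, 30 again for CoCl2 against control and 16 between the agents, 13 of them among the 14.

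Small differences changed sign. miR-210-3p was at 0.0505 without the filter, 0.0543 with the replicate block, 0.0382 on the log2 values and from -0.145 to 0.159 with a library left out. miR-10a-5p was at -0.0198 in DESeq2, -0.00837 by library size, -0.0195 with RLE, -0.0116 under the stricter filter, -0.0153 with 6 libraries, -0.0253 on the log2 values and from -0.103 to 0.0962 with a library left out. With a library left out miR-21-5p ran from -0.0656 to 0.0219, miR-200b-3p from -0.0649 to 0.00886 and PHC2 from -0.0487 to 0.0213, with 0.0203 in DESeq2. At 29.4 CPM per count, CoCl2 replicate 1 could not show most of the called miRNAs.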

Other observations

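miR-372-3p had the highest fitted difference among miRNAs with a mean over 100 CPM, 1.86 ± 1.15 (edgeR FDR 0.499). Its counts in HT-29 varied within every group, with 55, 353 and 115 under CoCl2, 216, 47 and 10 under OD, with 50 to 326 in control. Its mean passed 100 CPM only through the 55 counts of the shallow CoCl2 replicate 1, at 29.4 CPM per count. miR-23a-5p, the minor strand of a hairpin next to MIR27A, had a difference of 1.92 ± 0.59 (FDR 0.0662), on counts of 0, 10 and 20 under CoCl2 against 3, 5 and 0 under OD. Its main strand, miR-23a-3p, had -0.21 (FDR 0.440). miR-181b-3p, from the hairpin 171 bases from MIR181A1, had 0.72 (FDR 0.0529) beside 0.04 for miR-181b-5p.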
